A study of Homo sapiens with 9 samples.

Results

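Messenger RNA of the processes that cells pushed through pores was compared with messenger RNA of the cell bodies left above the pores. The cells were hTERT-MSC, an established line of human adipose mesenchymal stem cells made immortal with telomerase (TERT). In both groups the cells were starved of serum, set for 2 h on uncoated inserts with pores of 3 µm, and then drawn for 1 h by 50 ng/mL PDGF-BB, a platelet growth factor, in the lower well. The lower face of the insert was scraped to give the pseudopodia, and the upper face was scraped afterwards to give the cell bodies. The 6 libraries used here, pseudopodia replicates 1 to 3 and cell body replicates 1 to 3, were taken by their labels out of 9 libraries in the series. The other 3, of whole cells, entered only an alternative fit. All libraries carry the same treatment, so no value below speaks of PDGF-BB itself, and all come from 1 line. The labels do not say whether the replicates were separate cultures, nor whether a pseudopodia library and the cell body library of the same number come from the same inserts, and p-values therefore measure only how far these samples spread, part or all of which may be technical. The question was which mRNAs are more or less abundant in what a cell protrudes than in its soma. A fold change here is a difference in a gene's share of the library. In such bulk material fewer processes and less RNA per process cannot be told apart.

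In migrating cells some mRNAs are carried along microtubules by kinesins and held at the tips of protrusions, often through the tumour suppressor protein APC and through stretches rich in G and A in the 3' untranslated region (UTR), the part of the mRNA after the coding part. The mRNA of RAB13, a small GTPase of membrane traffic, and that of NET1, an exchange factor for RHOA, are well-known examples. Another large group of mRNAs is translated at the endoplasmic reticulum, since the ribosome docks there once a hydrophobic signal peptide or membrane anchor has emerged near the start of the protein. Codons with T (U in the mRNA) at their second position encode phenylalanine, leucine, isoleucine, methionine and valine, so a run of such codons near the start marks many, though not all, of these proteins.

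Both kinds of sequence are shown here for examples only, and the shares over all genes are given further below. The purine-richest 25 bases of the longest 3' UTR (GENCODE release 29, GRCh38, written 5′ to 3′ as DNA in the sense of the mRNA, A and G in capitals) are shown for 7 genes that were far higher in pseudopodia and for FN1, fibronectin, which had the largest fall in CPM. They lie at chr1:153981952-153981976 on the minus strand for RAB13, chr10:5457959-5457983 (plus) for NET1, chr10:103595561-103595585 (minus) for SH3PXD2A, chr12:55755532-55755556 (plus) for GDF11, chr19:48197218-48197242 (plus) for ZSWIM9, chr2:201380400-201380424 (minus) for TRAK2, chr17:5024308-5024332 (plus) for KIF1C and chr2:215360462-215360486 (minus) for FN1.
RAB13: GAGGAGAAAAAGGAGAAAAGGGAAA
NET1: AAAAGAAAAAGAGAGGAAAAGAGAG
SH3PXD2A: GAAAGAGAAAAAAGGGAGGGAGGGA
GDF11: AGGGAAAcGGGGAGAGGAAGGAAGG
ZSWIM9: AGcGGGGAGAGGGGAAAGGGAGAAA
TRAK2: GAAAGGGGGAAtGGAGGAAtGGAAA
KIF1C: GGAGGctGAGGAAAGGAAGAGGGcA
FN1: GcAAGGGAAAtAAAAAtGActAAGA
RAB13, NET1 and SH3PXD2A had 25 purines of 25, GDF11 and ZSWIM9 had 24, TRAK2 had 23 and KIF1C had 22. The best window of FN1 had 20. Other named genes break this split. MAP4 and NBPF10, which rose, had 19 at best, and SYT11 and IGFBP3, which fell, had 23.

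The first 30 codons of the coding part are shown next, with T at the second position of a codon (the start codon apart) in capitals, for 4 genes that fell and 4 that rose. The genes span chr2:215360440-215436172 (FN1, minus strand), chr15:39581079-39599466 (THBS1, plus), chr7:23235967-23275108 (GPNMB, plus), chrX:120427827-120469365 (LAMP2, minus), chr17:4997948-5028401 (KIF1C, plus), chr2:201377207-201451579 (TRAK2, minus), chr3:47850690-48089272 (MAP4, minus) and chr10:103594027-103855543 (SH3PXD2A, minus), introns included.
FN1: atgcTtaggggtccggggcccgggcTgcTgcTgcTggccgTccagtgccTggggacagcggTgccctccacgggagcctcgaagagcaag
THBS1: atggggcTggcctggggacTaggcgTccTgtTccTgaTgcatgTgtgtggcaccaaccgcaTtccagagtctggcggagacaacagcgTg
GPNMB: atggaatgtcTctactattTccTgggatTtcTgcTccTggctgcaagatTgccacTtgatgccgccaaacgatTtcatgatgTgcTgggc
LAMP2: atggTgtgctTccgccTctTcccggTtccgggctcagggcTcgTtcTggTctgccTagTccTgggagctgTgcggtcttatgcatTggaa
KIF1C: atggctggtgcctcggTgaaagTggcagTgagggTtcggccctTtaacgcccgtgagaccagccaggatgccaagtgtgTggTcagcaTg
TRAK2: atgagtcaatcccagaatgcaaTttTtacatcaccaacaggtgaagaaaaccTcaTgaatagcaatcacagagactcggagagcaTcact
MAP4: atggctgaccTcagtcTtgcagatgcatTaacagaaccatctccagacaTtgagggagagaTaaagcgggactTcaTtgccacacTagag
SH3PXD2A: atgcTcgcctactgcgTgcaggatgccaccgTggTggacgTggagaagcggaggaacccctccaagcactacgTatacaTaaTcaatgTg
In the richest stretch of 9 consecutive codons within codons 2 to 30, FN1 and GPNMB had 6 such codons and LAMP2 and THBS1 had 7. KIF1C, MAP4 and SH3PXD2A had 4 and TRAK2 had 2. Not every named gene followed this split, since COL3A1, which fell, had 5, and CCDC80 and RAB13, which rose, had 6.

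Total counts were 59148161 to 77166197 in the pseudopodia libraries and 55469030 to 71330868 in the cell body libraries. The biological coefficient of variation, which measures the spread between replicates, was 32.3% for pseudopodia and 17.3% for cell bodies. Across genes, the deviation from the group mean was correlated with GC content at Pearson r = -0.59 in pseudopodia replicate 2 and 0.61 in replicate 3, against -0.16 for replicate 1 and -0.05 to 0.07 for the cell bodies. Genes are not independent replicates, and the deviations of 3 libraries cancel out, so these signs do not show which library departs. TERT, the gene that made the line immortal, was at 753, 733 and 945 CPM in the pseudopodia and 397, 590.0 and 523 CPM in the cell bodies. Markers fixed for mesenchymal stem cells summed to 33810 to 38650 CPM in pseudopodia and 68030 to 93680 CPM in cell bodies. Of these markers 14 of 18 were lower in pseudopodia and 2 higher. The list holds the matrix genes FN1, COL1A1 and COL1A2, with FN1 alone at up to 37400 CPM in a library. It also holds TERT, which was among the members that were higher. Of the markers fixed for other cell types, ADIPOQ and FABP4 (adipocytes), KDR and CLDN5 (endothelium), CD3E, CD68, ITGAM, LYZ and HBB (blood cells), EPCAM, CLDN3 and ESRP1 (epithelium) and SOX10 and OLIG2 (neural cells) were under 0.1 CPM in all 6 libraries. Other markers of the same lists were present, with PPARG (adipocytes) at up to 34.01 CPM in a library, TEK, VWF and CDH5 (endothelium) at up to 76.9, 19.4 and 12.97 CPM, CD34 (blood cells) at up to 76.0 CPM, KRT8 and KRT18 (epithelium) at up to 166 and 163 CPM and MBP (neural cells) at up to 88.4 CPM. The summed markers of these types overlapped between the groups, except for the adipocyte list (37.8 to 42.6 CPM in pseudopodia and 54.6 to 57.9 in cell bodies). Tested members higher and lower were 1 and 1 of 6 for adipocytes, 2 and 3 of 8 for endothelium, 0 and 2 of 3 for blood cells, 0 and 0 of 6 for epithelium, 3 and 1 of 10 for smooth muscle and pericytes and 3 and 1 of 8 for neural cells, and their part in the results below was not tested.

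Of 17827 genes tested, 2613 were higher in pseudopodia (14.7%) and 2936 lower (16.5%) at an adjusted p under 0.05, by edgeR's quasi-likelihood test with Benjamini-Hochberg adjustment over all of them. Of these, 1412 were at least 2-fold higher (7.92% of genes tested) and 1972 at least 2-fold lower (11.1%). The 3 pseudopodia values lay above all 3 cell body values for 4138 genes (23.2%) and below them for 4727 (26.5%), and 2606 of the genes called higher and 2933 of those called lower were among them. At least 4-fold, 491 were higher (2.75%) and 572 lower (3.21%). The calls were 1733 higher and 1964 lower without cell body replicate 2 (9.31% and 10.6%), and 1817 and 1754 without cell body replicate 3 (9.97% and 9.63%). They came to 10.4% and 11% of genes without pseudopodia replicate 1, to 16.6% and 18.5% without pseudopodia replicate 3, and to 11.9% and 12% without cell body replicate 1. On log2(TPM + 1), where no factor corrects for composition, 1833 were higher (10.3%) and 4593 lower (25.8%), so that 28.5% of calls were higher against 47.1%, and the median of all genes was -0.18 in place of -0.07. On log2(TPM + 0.1) the shares were 10.1% and 24.9%, with the correction for GC content and length 15.9% and 21.3%, and among genes with at least 5 CPM in 3 libraries 20% and 20.4%. Counts of a family under one of these settings, given below, are to be read against that setting's shares.

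**Figure D1:**
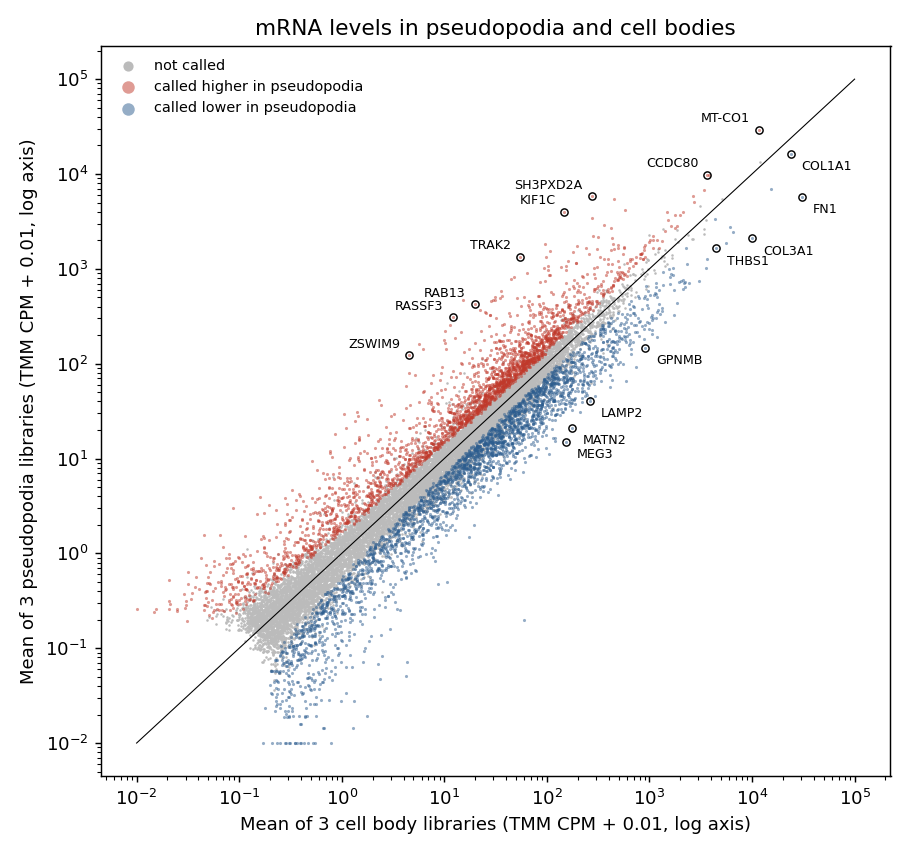
Each dot is 1 of 17827 tested genes, with its mean over 3 cell body libraries on the x axis and over 3 pseudopodia libraries on the y axis (TMM CPM + 0.01, both axes log). Red dots were called higher in pseudopodia (2613), blue dots lower (2936), grey dots were not called, circles are named genes and the line marks equality.

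Measured by the change in level, the genes that gained most in pseudopodia were MT-CO1, CCDC80, FTL, SH3PXD2A, MAP4K4, KIF1C, MAP4 and MT-CO2. MT-CO1, encoded in mitochondria as part of cytochrome c oxidase, was at 27991, 29610.2 and 30536 CPM in the pseudopodia and 10950.3, 12336 and 11488 CPM in the cell bodies. All 3 pseudopodia libraries lay above the cell bodies, and the log2 fold change was 1.34 ± 0.120 (SE, n = 3 against 3, edgeR adjusted p = 2.12e-04). MT-CO2, another subunit of that enzyme, was at 7535, 8091 and 4749.6 CPM in the pseudopodia and 3399, 3605 and 3148 CPM in the cell bodies. Replicate 3 was the lowest of the pseudopodia for MT-CO2 and still above the cell bodies (1.01 ± 0.207). FTL, the light chain of ferritin, which stores iron, was at 9564, 8572 and 11192 CPM in the pseudopodia and 3972, 3807 and 3759 CPM in the cell bodies (1.35 ± 0.139), with no overlap. FTL has processed pseudogenes, so its reads are uncertain.

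CCDC80, a secreted protein of the matrix, stood at 9479, 11176 and 8897 CPM in the pseudopodia and 3216, 4094 and 3710.5 CPM in the cell bodies. It rose by 1.42 ± 0.152 (SE, n = 3 against 3, edgeR adjusted p = 4.39e-04) on the log2 scale although its start holds 6 T-type codons of 9. SH3PXD2A, the scaffold TKS5 of podosomes, which are actin-rich sites of matrix breakdown, was at 5765, 5394 and 6445 CPM in the pseudopodia and 186, 316 and 319.9 CPM in the cell bodies. Its lowest pseudopodia value was far above the highest cell body value, and the log2 fold change was 4.42 ± 0.249 (SE, n = 3 against 3, edgeR adjusted p = 4.74e-05). MAP4K4, a kinase that acts on focal adhesions and the JNK pathway, was at 5156, 5325 and 5763 CPM in the pseudopodia and 359, 481 and 502 CPM in the cell bodies (3.60 ± 0.174). MAP4, a protein that binds and stabilises microtubules, was at 3947, 3998 and 4673 CPM in the pseudopodia and 501, 637 and 595 CPM in the cell bodies (2.86 ± 0.154). KIF1C, a kinesin that moves cargo along microtubules, was at 3888, 3545 and 4614 CPM in the pseudopodia and 139.6, 149 and 157 CPM in the cell bodies (4.76 ± 0.164). For each of these 4 genes the groups were wide apart, and the pseudopodia replicates lay within a narrow range.

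The genes that lost most were all of the matrix: FN1, COL1A2, COL3A1, COL1A1, COL6A1, TGFBI, COL6A2 and THBS1. FN1 was at 5877, 5694 and 5596 CPM in the pseudopodia and 20788, 37417 and 33335 CPM in the cell bodies. The pseudopodia values were close together and the cell body replicate 1 was the lowest of its group, and the log2 fold change was -2.41 ± 0.223 (SE, n = 3 against 3, edgeR adjusted p = 2.49e-04). COL3A1, the chain of type III collagen, was at 2513, 2183 and 1587 CPM in the pseudopodia and 8959, 10294 and 11003 CPM in the cell bodies (-2.27 ± 0.196), again with no overlap. COL1A1 and COL1A2 together form type I collagen, but they fell by unlike amounts. COL1A2 was at 7852, 6682 and 6342 CPM in the pseudopodia and 13651, 16203 and 16093 CPM in the cell bodies (-1.14 ± 0.142). COL1A1 was at 17575, 13960.0 and 17361 CPM in the pseudopodia and 21704, 27379 and 22271 CPM in the cell bodies, so the groups lay much closer (-0.55 ± 0.154 (SE, n = 3 against 3, edgeR adjusted p = 0.0308)), and the call was kept in 1 of the 6 fits that left out a library. The difference between these 2 fold changes was not tested. THBS1, thrombospondin, an adhesive glycoprotein, was at 1964, 2015 and 939 CPM in the pseudopodia and 3507, 5179.7 and 4747 CPM in the cell bodies. Pseudopodia replicate 3 was the lowest there (-1.45 ± 0.312), and the call was kept in 5 of the 6 fits. TGFBI, a matrix protein induced by TGF-beta, fell by 1.59 ± 0.141 on the log2 scale, COL6A1 fell by 1.42 ± 0.140 and COL6A2 fell by 1.14 ± 0.139.

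By the width of the gap between the groups, the highest genes in pseudopodia were C22orf46P, KIF1C, ENSG00000237493, RASSF3, TRAK2, GDF11, NBPF10, ZSWIM9, SH3PXD2A and RAB13. C22orf46P, by its name a pseudogene, was at 409, 462 and 531 CPM in the pseudopodia and 15.3, 16.8 and 13.3 CPM in the cell bodies (4.95 ± 0.180). TRAK2, an adaptor that joins mitochondria to kinesin, was at 1316, 1367 and 1359 CPM in the pseudopodia and 46.8, 53.1 and 64.8 CPM in the cell bodies (4.62 ± 0.173). RASSF3, a RAS-association protein, was at 325, 288 and 309 CPM in the pseudopodia and 10.8, 12.4 and 12.9 CPM in the cell bodies (4.68 ± 0.152). Per length, these genes reached very different levels in pseudopodia, with a mean of 1690.3 TPM for KIF1C, 647 TPM for TRAK2, 554 TPM for RAB13 and 262 TPM for RASSF3. GDF11, a secreted ligand of the TGF-beta family, was at 214, 206 and 247 CPM in the pseudopodia and 10.02, 10.2 and 10.2 CPM in the cell bodies (4.45 ± 0.146). ZSWIM9, a little-studied zinc finger gene, was at 128, 103 and 135 CPM in the pseudopodia and 5.08, 4.97 and 3.61 CPM in the cell bodies (4.75 ± 0.211). ENSG00000237493, for which no symbol was found, was at 166, 165 and 147 CPM in the pseudopodia and 5.53, 5.32 and 5.95 CPM in the cell bodies (4.83 ± 0.148). NBPF10 (4.52 ± 0.155) is uncertain, since it has near-identical copies in the genome. In every one of these 10 genes the lowest pseudopodia value was at least 16.3 times the highest cell body value plus 1 CPM. NET1 was lower in pseudopodia replicate 3 than in the others, at 415, 451 and 176 CPM in the pseudopodia and 25.4, 22.1 and 27.2 CPM in the cell bodies (3.80 ± 0.372).

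On the other side the widest gaps were those of MEG3, CARMN, ENPP2, GPNMB, MAMDC2, MATN2, CD46, COL8A1, LAMP2 and PSG5. MEG3, a long noncoding RNA from an imprinted locus (chr14:100779410-100861031), was at 13.8, 14.5 and 16.9 CPM in the pseudopodia and 135, 163 and 161 CPM in the cell bodies (-3.34 ± 0.158). CARMN, the host lncRNA of microRNAs of smooth muscle (chr5:149406689-149432835), was at 9.76, 12.1 and 11.98 CPM in the pseudopodia and 117, 109.6 and 90.2 CPM in the cell bodies (-3.23 ± 0.172). GPNMB, a glycoprotein of the cell surface and of lysosomes, was at 157, 145 and 141 CPM in the pseudopodia and 822, 952 and 935 CPM in the cell bodies (-2.61 ± 0.133). LAMP2, a membrane protein of lysosomes, was at 45.9, 44.99 and 30.4 CPM in the pseudopodia and 226, 271 and 286 CPM in the cell bodies (-2.69 ± 0.203). CD46, a membrane protein that protects cells from complement, was at 19.8, 22.5 and 6.90 CPM in the pseudopodia and 114, 116 and 133 CPM in the cell bodies (-2.88 ± 0.421), with pseudopodia replicate 3 the lowest. MAMDC2 (-2.92 ± 0.492), MATN2 (-3.05 ± 0.397) and COL8A1 (-2.84 ± 0.354), all of the matrix, had their lowest value in the same library. ENPP2, the secreted enzyme autotaxin, fell by 2.98 ± 0.199 on the log2 scale. PSG5 (-2.61 ± 0.212) is 1 of a family of near-identical genes, so its reads may be shared.

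**Figure D2:**
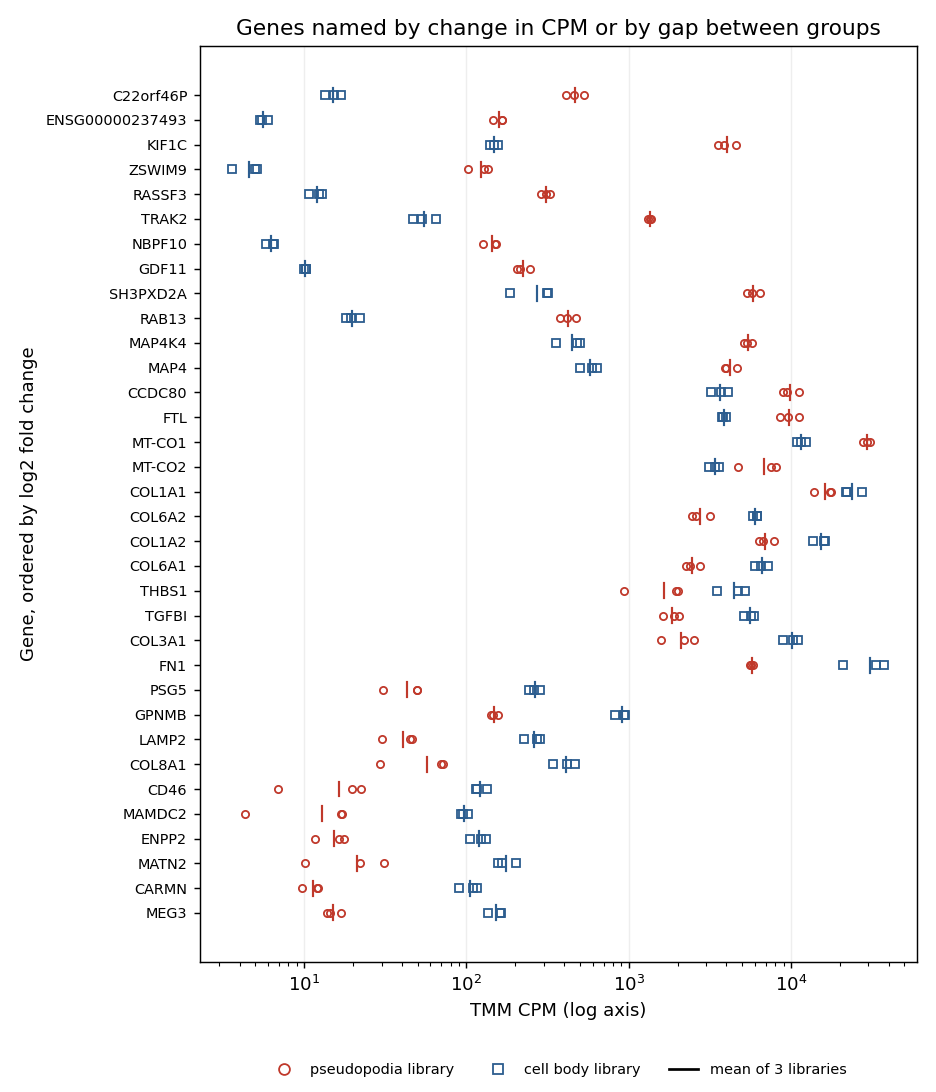
TMM CPM (log axis) of each of the named genes in the 3 pseudopodia libraries (red circles) and 3 cell body libraries (blue squares), with vertical ticks for the group means, in order of the log2 fold change. The red and blue symbols are apart for every gene plotted, most narrowly for COL1A1 (17575 CPM at most in pseudopodia, 21704 at least in cell bodies).

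The T-type codons at the coding start, described above, were counted for 13533 tested genes. A run was taken as at least 6 such codons in any 9 consecutive codons. Of 2327 genes with a run, 43.2% were lower in pseudopodia and 6.96% higher. Of 11206 genes without a run, 13.4% were lower and 16.4% higher. Among all 13533 genes 18.5% were lower and 14.8% higher. The share of lower genes stayed between 9.8% and 12.3% for genes with 0 to 4 such codons. It was 19.1% with 5 codons, 36.8% with 6, 48.6% with 7 and 57.3% with 8, and it was 38.3% for the 60 genes with 9. Of all genes called lower 40.1% had a run, and of those at least 4-fold lower 57.5%, against 8.11% of genes called higher and 17.2% of genes tested.

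The difference was found in each quintile of coding length and of GC content. In the quintile with the shortest coding parts 31.4% of genes with a run and 9.74% of those without were lower. In the quintile with the longest the shares were 44.9% and 8.66%. In the quintile of lowest GC content they were 44.4% and 15.1%, and in that of highest GC content 33.1% and 8.81%. With the correction for GC content and length, 50.7% of genes with a run and 19.1% of the others were lower. Genes with a run were lower in 33.1% and those without in 7.77% when pseudopodia replicate 1 was left out, in 33.3% and 7.7% without cell body replicate 2, and in 31.1% and 6.57% without cell body replicate 3.

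Summed over genes, mRNAs with a run took 19.5%, 18.8% and 19.2% of counts in the pseudopodia and 30.8%, 32.6% and 32.1% in the cell bodies. The groups did not overlap and differed by -12.7 percentage points, with a two-sided exact permutation p = 0.1, the smallest that 3 against 3 libraries can give. As a share of TPM the difference was -9.33 points. A run did not fix the direction. Of the 292 genes with a coding start that were called and at least 4-fold higher, 31 had one (10.6%). Among the named genes these included RAB13, RASSF3, GDF11 and the potassium channel KCNK6 (from 35.3 ± 1.59 to 586 ± 101 CPM), and also PPP1R15A (from 193 ± 12.6 to 1150.0 ± 151 CPM), which directs a protein phosphatase to a translation initiation factor. RAB13 and RASSF3 are cytosolic proteins by textbook knowledge, so a run is not a signal peptide in every gene.

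**Figure D3:**
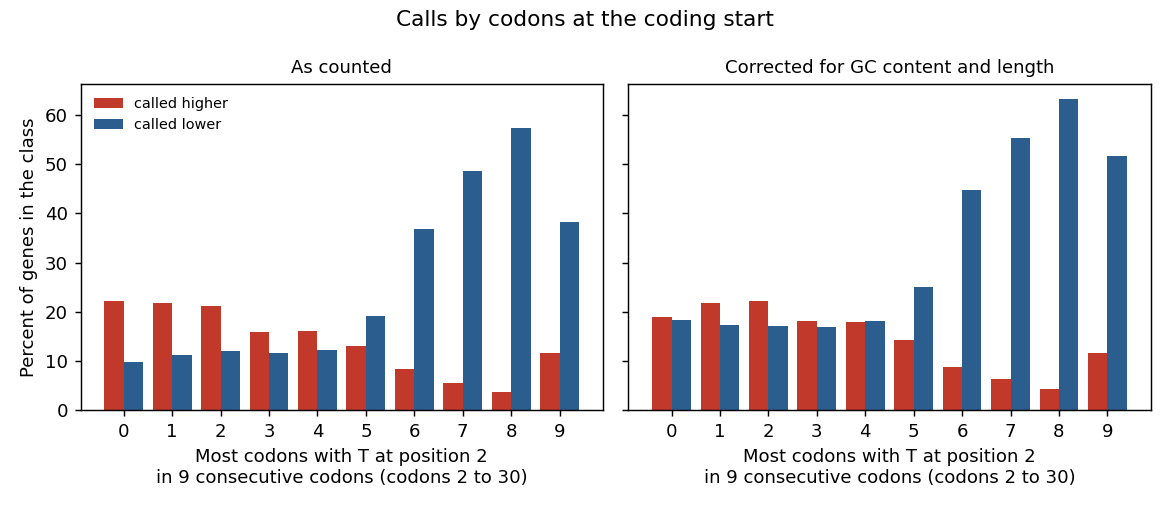
Percent of genes called higher (red) and lower (blue) in pseudopodia, on the y axis, by the largest number of codons with T at position 2 in 9 consecutive codons within codons 2 to 30, on the x axis, as counted (left) and corrected for GC content and length (right). The blue bars are low up to 4 codons and reach 57.3% at 8 codons on the left, while the red bars fall to 3.64%.

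Purine windows went with the size of the rise. A window was counted where the longest 3' UTR held 25 bases with at least 23 A or G, of which at least 6 were G, and 19.2% of 13471 tested genes with a 3' UTR had one. The share was 18.4% of genes called lower and 27.5% of genes called higher. Among the latter it was 20.8% for rises under 2-fold, 29.4% for 2- to 4-fold, 46.5% for 4- to 8-fold (94 of 202 genes) and 50% over 8-fold (45 of 90). Of genes more than 4-fold lower it was 13.7%. Windows of 25 purines were in 2.43% of genes tested and in 13.3% of those over 8-fold higher.

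Genes with strong rises had long 3' UTRs, with a median of 2491 bases over 8-fold against 1347 bases over all, and a longer UTR has more places for a window. Within quintiles of UTR length, called rises of at least 4-fold were found in 1.23%, 4.07%, 3.58%, 5.36% and 6.63% of genes with a window, from the shortest to the longest UTRs. In genes without a window they were found in 1.38%, 1.4%, 1.14%, 1.75% and 1.38%. The shortest quintile, with 81 genes with a window and 1 such rise among them, showed no excess. Over the 16 alternatives, leaving out each library included, the share of genes with a window among those at least 4-fold higher ran from 45.1% to 55.1%, beside 47.6% as fitted. The share of genes called higher was 21.2% with a window and 13.2% without, and with the GC and length correction 22.2% and 14.7%. KIF1C, RASSF3 and MAP4K4, whose best windows hold 22, 20 and 22 purines, rose far without a window by this rule.

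**Figure D4:**
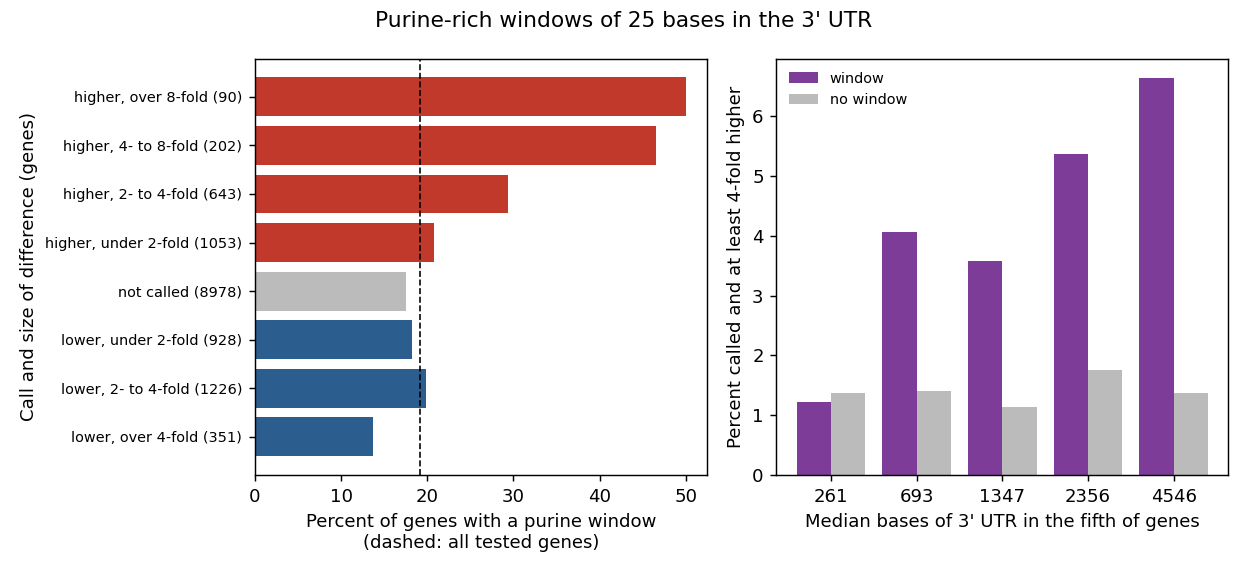
Left, percent of genes whose 3' UTR holds a purine window (x axis), by call and size of the difference (number of genes in brackets), with the share over all tested genes dashed at 19.2%. Right, percent of genes called and at least 4-fold higher (y axis) in quintiles of 3' UTR length (x axis, median bases), with a window (purple) and without (grey), where all but the shortest quintile have the taller purple bar.

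Other features of the genes were read in 10 bins of equal size. In the bin with the longest coding parts (median 4785 bases) 27.2% of genes rose and 11.9% fell, whereas in the bin with the shortest (408 bases) 11.5% rose and 11% fell. The share that fell was highest in the middle, up to 23.5% at a median of 1077 bases. With the correction for GC content and transcript length, 26.9% of the longest coding parts still rose and 20.8% fell. Genes with the most exons (median 28) rose in 24.6%. With GC content the share that rose went from 4.99% in the lowest bin (median 37.4% GC) to 26.7% in the highest (64.4%), with a Spearman correlation of 0.27 across 17227 genes, which are not independent. The correlation was 0.40 without pseudopodia replicate 2 and 0.12 without replicate 3, the pair with the correlations of -0.59 and 0.61 above, and 0.0087 after the correction, which removes it by construction. On chromosome 19, rich in GC (median 58.6%), 21.5% of genes rose, and on chromosome 4 (median 43.8%) 10%. Calls were more frequent among abundant genes, with 32.4% higher and 24.2% lower in the highest bin of mean CPM and 5.22% and 10.8% in the lowest.

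Genes whose RNA starts with C and 4 or more pyrimidines, as the mRNAs of ribosomal proteins do, were read from RefSeq promoters (GRCh38.p14), which matched 12269 tested genes. Of 640 such genes 19.7% rose and 14.1% fell, against 14.2% and 17.3% of the others. Without ribosomal protein genes the shares were 16.6% and 14.8% of 596. By gene type, 14.8% of protein-coding genes rose and 18.5% fell. Long intergenic noncoding RNAs rose in 13.4% and fell in 7.17%, and processed pseudogenes rose in 14.7% and fell in 5.36%. Reads of a pseudogene may belong to its parent gene.

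The genes were also grouped into 78 families by their symbols, and each family was set beside the shares over all tested genes (14.7% higher, 16.5% lower, median log2 fold change -0.07). In the lists of small GTPases, the switches that set actin, adhesion and membrane traffic, and of their regulators, 16.7% to 42.6% of members were higher and 0% to 9.09% lower. Of the exchange factors that turn GTPases of the RHOA family on, 29 of 68 tested members rose and 3 fell, with a median of 0.63. AKAP13, an exchange factor for RHOA that also anchors protein kinase A, was at 1858, 2246 and 2344 CPM in the pseudopodia and 215, 359 and 363 CPM in the cell bodies. Its values did not overlap between groups (2.78 ± 0.233 (SE, n = 3 against 3, edgeR adjusted p = 1.78e-04)). ARHGEF10L rose from 29.7 ± 0.675 to 72.9 ± 7.55 CPM, while DOCK8, which acts on CDC42, fell from 5.32 ± 0.848 to 1.72 ± 0.457 CPM. Of the proteins that turn this family off, 21 of 53 tested members rose and 0 fell (median 0.48), among them ARHGAP45 (3.28 ± 0.212). The GTPases of the family themselves gave 4 higher and 2 lower of 22, where RHOBTB2 rose (1.16 ± 0.161) and RHOB fell (-0.58 ± 0.140), the latter called in 2 of the 6 fits without a library.

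Of RAS and RAP regulators 19 of 54 tested members rose and 0 fell, with RASSF3 and RALB (1.04 ± 0.124), a GTPase of the exocyst, in front. Of regulators and effectors of RAB GTPases, which direct vesicles, 27 of 89 tested members rose and 1 fell. RGP1, part of the exchange factor for RAB6, rose from 35.6 ± 7.15 to 173 ± 30.3 CPM, and RAB11FIP3, an effector of recycling endosomes, from 86.5 ± 3.71 to 238 ± 39.01 CPM. ARF and ARL GTPases with their regulators gave 10 higher and 5 lower of 60 (16.7% and 8.33%), with AGAP3 higher (1.34 ± 0.142) and ARF4 of the Golgi lower (-0.69 ± 0.112). On log2(TPM + 1), which moved the median of all genes down, the RHOA-family exchange factors gave 19 higher and 3 lower and the RAS regulators 12 and 5, and on log2(TPM + 0.1) the RHOA-family GTPase-activating proteins gave 13 and 0. Without pseudopodia replicate 1 the ARF list gave 5 higher and 3 lower, where 10.4% and 11% of all genes were called. Without cell body replicate 2 it gave 4 and 4, where 9.31% and 10.6% of all genes were called.

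In the lists of kinases, phosphatases and lipid signalling the share of higher members ran from 13.9% (protein tyrosine phosphatases) to 33.9% (PP1 and PP2A). Of AGC and other growth-linked serine and threonine kinases 31 of 109 tested members rose and 8 fell (median 0.31). NUAK1, a kinase of cell adhesion, was at 146, 116 and 136 CPM in the pseudopodia and 14.9, 16.4 and 14.97 CPM in the cell bodies, a log2 fold change of 3.10 ± 0.149 (SE, n = 3 against 3, edgeR adjusted p = 2.26e-05). STK38 (NDR1) rose from 79.1 ± 3.73 to 191 ± 8.92 CPM, and CLK1, a kinase of splicing factors, fell from 31.6 ± 8.21 to 8.88 ± 3.77 CPM. Of subunits of the phosphatases PP1 and PP2A 19 of 56 tested members rose and 2 fell. PPP1R3C, which brings PP1 to glycogen, was at 476, 458 and 545 CPM in the pseudopodia and 50.99, 49.5 and 52.2 CPM in the cell bodies. The 3 pseudopodia values were all well above the cell bodies (3.28 ± 0.136). PPP1R3B, of the same kind, fell (-0.83 ± 0.171). Phospholipases C, diacylglycerol kinases and protein kinases C gave 11 higher and 3 lower of 36, with PRKD1 (1.45 ± 0.121) and DGKD (1.14 ± 0.167) higher.

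Phosphoinositide kinases and phosphatases gave 12 higher and 3 lower of 53. PIP5K1C, which makes the lipid PIP2 at adhesions, rose from 155 ± 17.3 to 278 ± 39.4 CPM, and PIK3R4, a partner of the endosomal lipid kinase, fell from 17.9 ± 2.41 to 8.28 ± 1.94 CPM. This count was 7 and 1 on leaving out pseudopodia replicate 1 and likewise cell body replicate 2, 19 and 3 without pseudopodia replicate 3, and 3 and 4 on either TPM scale. Cytoplasmic tyrosine kinases gave 6 higher and 0 lower of 18, with FYN, of the SRC family (0.79 ± 0.119), and TNK2 (1.02 ± 0.145) higher. The count of higher members was 2 in the fits that left out pseudopodia replicate 1 or else cell body replicate 2 and 3 without cell body replicate 3. Genes of cyclic nucleotide signalling gave 11 higher and 4 lower of 57, with 5 to 7 higher when 1 of pseudopodia replicate 1 and the 3 cell body replicates was left out. The phosphodiesterase PDE7B rose there (2.36 ± 0.142). Among protein tyrosine phosphatases (5 higher and 8 lower of 36) PTPN11 (SHP2), a cytosolic enzyme that couples growth factor receptors to RAS, was at 668, 995 and 578 CPM in the pseudopodia and 84.5, 112 and 93.1 CPM in the cell bodies (2.95 ± 0.239). The receptor-like PTPRK (-1.45 ± 0.217) and PTPRM (-1.05 ± 0.160) fell. Of the 12 members of this list with a codon run 0 rose and 4 fell, and of the 24 without 5 and 4.

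In the lists of cortex scaffolds, myosins and membrane-bending proteins 23.3% to 38.2% of members were higher and 0% to 8.82% lower. Of ankyrins, spectrins, plakins and ERM proteins, which tie the membrane to the cytoskeleton, 13 of 34 tested members rose and 0 fell. NF2 (merlin) was at 128, 128 and 164 CPM in the pseudopodia and 45.1, 50.1 and 48.5 CPM in the cell bodies, with no overlap (1.55 ± 0.149 (SE, n = 3 against 3, edgeR adjusted p = 2.81e-04)). SPTBN5, a spectrin, rose as well (1.69 ± 0.172). Of LIM and PDZ scaffold proteins 14 of 60 tested members rose and 0 fell. PARD3B, a relative of the polarity protein PAR3, rose from 27.8 ± 7.75 to 326 ± 35.96 CPM. Of myosins 11 of 39 tested members rose and 0 fell, with MYO18A (2.0 ± 0.157) and MYO18B (2.29 ± 0.180) in front. Of septins and BAR-domain proteins, which bend membrane, 14 of 38 tested members rose and 3 fell. MTSS2 rose from 38.5 ± 6.44 to 126 ± 14.2 CPM and FCHSD2 from 32.2 ± 1.30 to 64.5 ± 8.42 CPM, while ARFIP1, of the Golgi, fell (-0.86 ± 0.204). PLEKH genes, named for a domain that binds phosphoinositides, gave 11 higher and 3 lower of 34. PLEKHA4 was at 779, 712 and 963 CPM in the pseudopodia and 47.01, 49.1 and 45.8 CPM in the cell bodies, a log2 fold change of 4.11 ± 0.166.

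In the lists of secreted and cell surface proteins 35.1% (guidance genes) to 71.1% (complement and coagulation) of members were lower and 0% to 11.1% higher. Of complement and coagulation genes 0 of 38 tested members rose and 27 fell, with a median of -1.27. C1R, a protease that starts the classical complement pathway, was at 189.9, 167 and 189 CPM in the pseudopodia and 921, 873 and 855 CPM in the cell bodies. Its partner C1S was at 229.8, 221 and 242 CPM in the pseudopodia and 969.8, 1005 and 1017 CPM in the cell bodies. Both were lower in every pseudopodia library than in any cell body library (-2.28 ± 0.126 and -2.11 ± 0.119). Of serpins and cystatins, which inhibit proteases, 0 of 22 tested members rose and 11 fell (median -1.17). Of 29 complement genes with a codon run 20 fell, and of the 9 without 7 fell.

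The list of chemokines, interleukins and their receptors, which also holds other receptors such as TNFRSF10D, gave 5 higher and 40 lower of 94 tested members. ACKR3, a scavenger receptor of the chemokine CXCL12, fell from 32.9 ± 0.350 to 6.23 ± 0.652 CPM, and TNFRSF10D, a decoy receptor of TRAIL, from 60.2 ± 5.36 to 10.1 ± 0.860 CPM. IL17RA was among those that rose (1.36 ± 0.171). In this list 22 of 55 genes with a codon run fell, and 18 of 39 without. Of tetraspanins, small membrane proteins that cross the membrane several times, 3 of 27 tested members rose and 16 fell (median -0.88). CD9 was at 56.9, 55.6 and 38.5 CPM in the pseudopodia and 218, 224 and 212 CPM in the cell bodies, with all pseudopodia values below the cell bodies (-2.11 ± 0.178). SLIT, ROBO, netrin and other guidance genes gave 1 higher and 13 lower of 37, among them the adhesion protein L1CAM (-1.92 ± 0.156) and FLRT2 (-1.82 ± 0.202). Ephrins and their receptors gave 0 higher and 6 lower of 15. Without cell body replicate 3 the lower counts were 24 for chemokines and interleukins, 8 for guidance genes and 1 for ephrins. Without pseudopodia replicate 1 they were 24, 8 and 2, and 10 for tetraspanins, and without cell body replicate 2 they were 26 for chemokines and 3 for ephrins.

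In the lists of the machinery that makes and finishes such proteins 39% to 47.7% of members were lower and 0% to 3.41% higher. Of Golgi glycosyltransferases and related enzymes 3 of 88 tested members rose and 42 fell (median -0.77). C1GALT1C1 (COSMC), the chaperone of an O-glycan enzyme, was at 5.26, 5.55 and 3.47 CPM in the pseudopodia and 31.4, 24.8 and 27.8 CPM in the cell bodies (-2.56 ± 0.225), without overlap. B4GALT2, a galactosyltransferase, rose from 82.7 ± 0.904 to 159 ± 27.7 CPM. Of genes that make heparan and chondroitin sulfate 1 of 42 tested members rose and 17 fell. EXT2, which builds heparan sulfate, fell from 231 ± 24.1 to 66.4 ± 8.31 CPM. Of GPI anchor genes 0 of 32 tested members rose and 14 fell. PIGT, a subunit of the enzyme that attaches the anchor, was at 94.8, 89.1 and 111 CPM in the pseudopodia and 288, 289 and 260.2 CPM in the cell bodies (-1.51 ± 0.138). Of genes around the translocon, the pore through which new proteins enter the endoplasmic reticulum, 1 of 41 tested members rose and 16 fell. EMC1, of the membrane insertase, fell from 111 ± 14.1 to 36.7 ± 3.94 CPM and SRPRA, a receptor of the signal recognition particle, from 181 ± 11.05 to 69.6 ± 4.76 CPM. RRBP1, which binds ribosomes to the same membrane, rose from 746 ± 88.9 to 1317 ± 151 CPM. In the last list 8 of 14 genes with a codon run fell and 8 of 27 without. For GPI anchor genes these counts were 10 of 18 and 4 of 13. The order was reversed in the Golgi list (27 of 63 and 15 of 25). It was reversed also for heparan and chondroitin sulfate genes (8 of 24 and 9 of 18). With the GC and length correction 26 heparan and chondroitin sulfate genes were lower, and on either TPM scale 26 translocon genes.

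**Figure D5:**
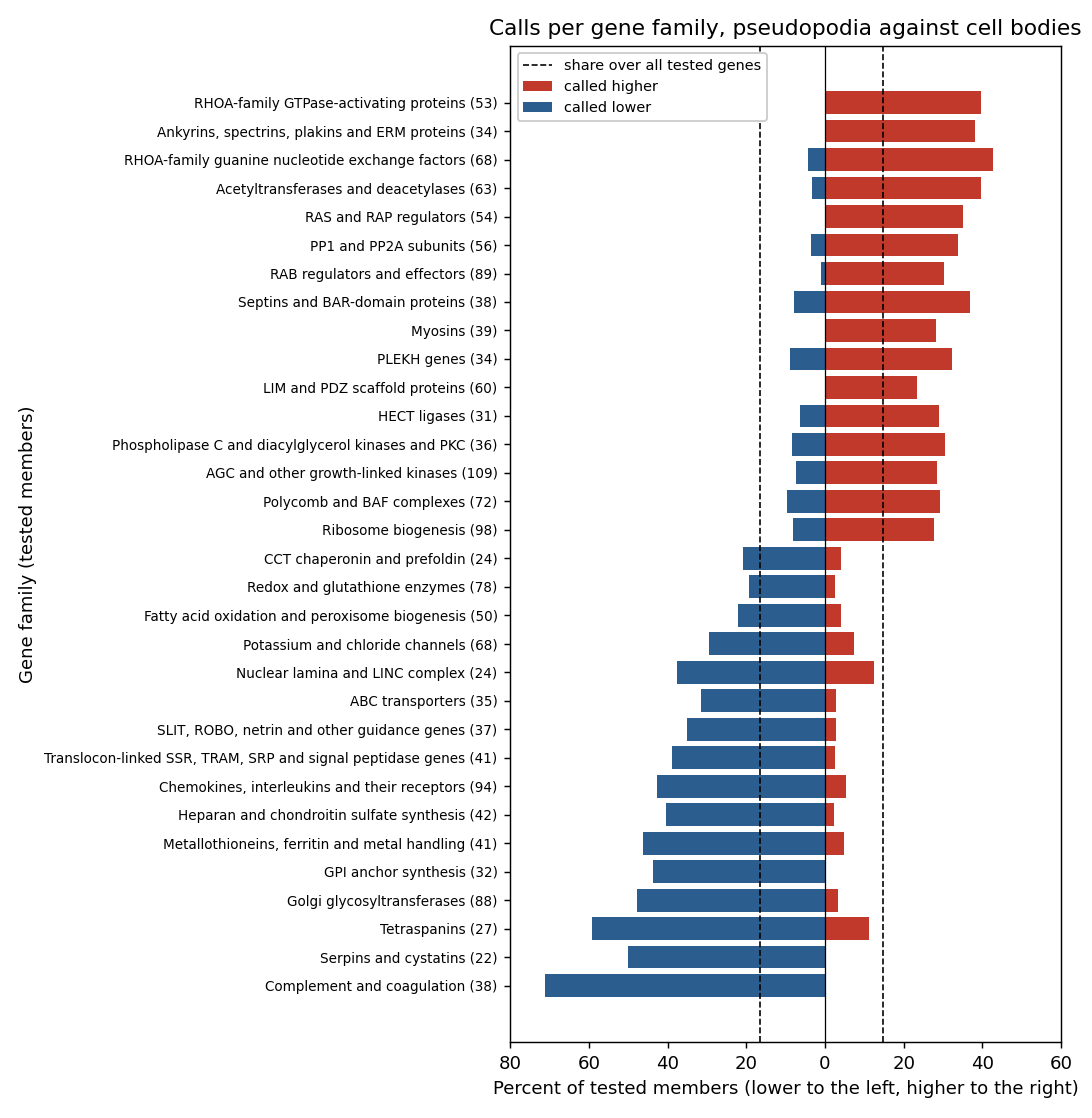
Percent of tested members called higher (red, to the right) and lower (blue, to the left) in pseudopodia for the 16 families of at least 20 tested members with the greatest excess on each side, with the number tested in brackets. Dashed lines mark the shares over all tested genes (14.7% and 16.5%). Families of GTPase regulators and cortex scaffolds, acetyltransferases with deacetylases, and PP1 and PP2A subunits are among those at the top. Complement, serpins and tetraspanins are at the bottom.

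Across potassium and chloride channels, ABC transporters and metal handling 29.4% to 46.3% of each list were lower and 2.86% to 7.35% higher. The list of calcium channels, pumps and kinases was nearer to all genes, with 7 higher and 10 lower of 64 (10.9% and 15.6%). Of potassium and chloride channels 5 of 68 tested members rose and 20 fell. KCNK6, which leaks potassium, was at 518, 538 and 702 CPM in the pseudopodia and 33.8, 36.96 and 35.2 CPM in the cell bodies and stood against that direction (4.05 ± 0.172). ANO10 fell from 47.02 ± 2.71 to 19.9 ± 1.43 CPM. Of the 7 potassium and chloride channel genes with a codon run 3 rose and 1 fell, and of the 61 without 2 rose and 19 fell. ABC transporters gave 1 higher and 11 lower of 35, and the 1 that rose, ABCF1 (1.47 ± 0.126), is a member that acts in translation and not in transport. Of genes for metallothioneins, ferritin and metal transport 2 of 41 tested members rose and 19 fell. The 2 that rose were the ferritin chains FTL and FTH1. FTH1, the heavy chain, was at 634, 1974 and 1416 CPM in the pseudopodia and 292, 351 and 340.4 CPM in the cell bodies (2.03 ± 0.384), and has pseudogenes like FTL. SLC39A14, an importer of zinc and iron, fell from 281 ± 55.03 to 74.4 ± 1.57 CPM, and SLC30A1, a zinc exporter, from 70.5 ± 9.89 to 14.2 ± 3.23 CPM. Without cell body replicate 3 the lower counts were 12 for potassium and chloride channels, 6 for ABC transporters and 12 for metal genes. Without cell body replicate 2 the lower count was 12 for potassium and chloride channels.

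Signalling pathways had members called in both directions. WNT pathway genes gave 13 higher and 20 lower of 61. Of 19 members with a codon run 1 rose and 11 fell, and of 42 without 12 rose and 9 fell. WLS, which carries WNT proteins to the surface, fell from 106 ± 8.26 to 34.9 ± 3.18 CPM, and so did the receptor FZD8 (-1.76 ± 0.163). DVL1, which relays the signal inside the cell, rose from 87.3 ± 2.65 to 177 ± 19.8 CPM, and so did AXIN1, the scaffold of the complex that destroys beta-catenin, from 63.7 ± 3.48 to 170.1 ± 24.4 CPM. Genes of FGF, IGF and insulin signalling gave 7 higher and 6 lower of 36. GAB2, a docking protein below growth factor receptors, was at 510.4, 455 and 602 CPM in the pseudopodia and 28.1, 40.5 and 40.4 CPM in the cell bodies, far apart from the cell bodies (3.85 ± 0.208). IGFBP3, which is secreted and binds IGF, was at 361, 329 and 389 CPM in the pseudopodia and 1297, 1324 and 1371 CPM in the cell bodies (-1.89 ± 0.126), and IGFBP6 fell too (-0.99 ± 0.166). In the Hippo list (6 higher and 3 lower of 34) MAP4K4 rose and FAT4, a giant cadherin, fell (-1.66 ± 0.291). Genes of hedgehog signalling and the primary cilium gave 13 higher and 13 lower of 92, close to all genes, with 2 lower without cell body replicate 3.

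Among other genes of membrane traffic, the RAB regulators above apart, the lists ran from 7.69% to 16.7% of members higher and from 8.33% to 15.2% lower. Exocyst and tethering complexes gave 4 higher and 5 lower of 52. SNAREs and synaptotagmins gave 7 higher and 7 lower of 63, sorting nexins, retromer and ESCRT 13 higher and 8 lower of 96, genes of the V-ATPase and of mTORC1 on lysosomes 9 higher and 7 lower of 54, and autophagy genes 6 higher and 7 lower of 46. SNX8, a sorting nexin, was at 439, 416 and 555 CPM in the pseudopodia and 29.02, 31.3 and 32.5 CPM in the cell bodies, with a log2 fold change of 3.92 ± 0.168. ATP6AP2, an accessory membrane protein of the proton pump, was at 45.8, 45.01 and 27.7 CPM in the pseudopodia and 225, 209 and 232 CPM in the cell bodies, and moved the other way (-2.49 ± 0.213). SYT11, a synaptotagmin anchored in membrane, fell from 68.01 ± 8.93 to 10.8 ± 1.64 CPM. NAPB, a soluble partner of SNAREs, rose from 6.36 ± 0.693 to 51.8 ± 4.42 CPM. STX3, of the same list, rose too, from 37.0 ± 3.07 to 66.5 ± 5.50 CPM. VMP1, a membrane protein needed for autophagosomes, fell from 86.1 ± 14.4 to 24.2 ± 2.10 CPM. The V-ATPase list gave 2 higher and 4 lower without cell body replicate 2, and sorting nexins gave 8 and 3 without cell body replicate 3.

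In the metabolic lists 2.56% to 7.55% of members were higher, fewer than over all genes, while the shares of lower members, from 7.55% to 22%, lay on both sides of that over all genes. Of redox and glutathione genes 2 of 78 tested members rose and 15 fell, of fatty acid oxidation and peroxisomes 2 and 11 of 50, and of the citric acid cycle 1 and 6 of 37. Amino acid, one-carbon and nucleotide synthesis gave 2 higher and 5 lower of 45, and mitochondrial protein import 4 higher and 4 lower of 53. PRDX4, a peroxiredoxin of the endoplasmic reticulum, fell from 109.7 ± 14.5 to 44.04 ± 5.42 CPM, and GPX4, which repairs lipid peroxides, rose from 488 ± 34.5 to 788 ± 104 CPM. CPT1A, which admits fatty acids to mitochondria, fell from 136 ± 14.1 to 69.1 ± 3.69 CPM, and PEX5, a cytosolic import receptor of peroxisomes, rose from 32.6 ± 3.48 to 129 ± 26.1 CPM. PDK4, a kinase that shuts off pyruvate dehydrogenase, rose from 7.52 ± 0.158 to 32.8 ± 16.8 CPM, while MDH1, a cytosolic malate dehydrogenase, fell from 75.6 ± 5.77 to 40.7 ± 4.02 CPM. Without cell body replicate 3, where 9.63% of all genes were lower, 7 redox genes, 3 of fatty acid oxidation and 3 of the citric acid cycle were lower. Without pseudopodia replicate 3, where 18.5% of all genes were lower, 25 redox genes were.

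Among lists of the nucleus, those of acetylation, of Polycomb and BAF and of ribosome biogenesis had 27.6% to 39.7% of members higher, whereas histone genes gave 1 higher and 3 lower of 33. Of acetyltransferases and deacetylases with their partners 25 of 63 tested members rose and 2 fell (median 0.44). KAT6B, a histone acetyltransferase, was at 178, 221 and 132 CPM in the pseudopodia and 20.8, 30.4 and 21.1 CPM in the cell bodies, with no overlap (2.88 ± 0.250 (SE, n = 3 against 3, edgeR adjusted p = 2.19e-04)). SAP18, a subunit of the SIN3 deacetylase complex, rose from 84.2 ± 4.86 to 350.0 ± 49.9 CPM. Of Polycomb and BAF genes 21 of 72 tested members rose and 7 fell, with SMARCA4, the BAF motor, from 101 ± 10.9 to 275 ± 34.9 CPM and SMARCC1 from 75.4 ± 12.6 to 249 ± 27.03 CPM. Of genes of ribosome biogenesis 27 of 98 tested members rose and 8 fell. TSR2 rose from 30.7 ± 1.33 to 169 ± 27.8 CPM and GNL1 from 116 ± 3.38 to 548 ± 29.2 CPM, whereas the helicase DDX18 fell (-1.27 ± 0.283). RNA polymerase II and its general factors gave 15 higher and 6 lower of 85, with TAF15 higher (2.09 ± 0.121) and GTF2B lower (-1.27 ± 0.258). Genes of RNA decay gave 16 higher and 10 lower of 81, with AGO1, which acts with microRNAs, higher (1.99 ± 0.189) and ZFP36, which binds AU-rich mRNAs, lower (-0.93 ± 0.146).

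Genes of the nuclear lamina and of the LINC complex, which links it to the cytoskeleton, gave 3 higher and 9 lower of 24. SYNE3 (nesprin-3), on the outer nuclear membrane, was at 806, 775 and 999 CPM in the pseudopodia and 80.1, 121 and 124 CPM in the cell bodies, and SYNE1 rose too from 103 ± 24.4 to 349.9 ± 103 CPM. TMEM43 of the inner membrane was at 45.9, 42.5 and 32.9 CPM in the pseudopodia and 148, 166 and 183 CPM in the cell bodies (-2.03 ± 0.172). Mediator and Integrator genes gave 2 higher and 9 lower of 67 and DNA repair genes 4 higher and 8 lower of 91, fewer calls than over all genes. These 2 lists gave 1 higher and 1 lower, and 1 higher and 3 lower, without cell body replicate 3.

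Of HECT ubiquitin ligases, large cytosolic enzymes, 9 of 31 tested members rose and 2 fell. HUWE1 rose from 244 ± 65.5 to 889.5 ± 109.7 CPM. RNF and TRIM ligases gave 31 higher and 18 lower of 150. TRIM41 was at 237, 219 and 299 CPM in the pseudopodia and 26.1, 25.5 and 29.5 CPM in the cell bodies (3.22 ± 0.170), and RNF149, which spans the membrane, fell from 63.1 ± 2.88 to 22.3 ± 0.243 CPM. Cullins and their adaptors gave 24 higher and 25 lower of 192. The F-box gene FBXW4 was at 434, 389.8 and 548 CPM in the pseudopodia and 29.98, 28.4 and 27.2 CPM in the cell bodies (4.0 ± 0.176), and KLHL15 fell (-1.50 ± 0.188). The cullin list gave 19 higher and 7 lower without cell body replicate 3, and 17 and 11 without replicate 2.

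In the families of transcription factors 9.38% (HOX) to 20.7% (bHLH and PAS) of members were higher and 0% (HOX) to 15.6% lower. HOX genes, which keep the position of a tissue along the body, gave 3 higher and 0 lower of 32, forkhead and SOX factors 7 higher and 5 lower of 35, bHLH and PAS factors 12 higher and 7 lower of 58, nuclear receptors and their cofactors 8 higher and 3 lower of 42, and STAT, IRF, NF-kB and SMAD factors 9 higher and 7 lower of 45. ARNT, the partner of hypoxia factors, was at 309.7, 298 and 371 CPM in the pseudopodia and 57.6, 73.2 and 74.4 CPM in the cell bodies, with no overlap (2.26 ± 0.164). MYC fell from 119.7 ± 12.6 to 62.8 ± 11.3 CPM and SOX9, of cartilage, from 97.2 ± 16.2 to 45.3 ± 1.35 CPM. FOXO4 rose from 18.8 ± 1.61 to 91.9 ± 16.5 CPM and NFATC2 from 123 ± 37.4 to 390.3 ± 53.1 CPM. Among regulators of apoptosis (4 higher and 5 lower of 38) BCL2L2, which protects cells, was at 538, 528 and 446 CPM in the pseudopodia and 31.1, 30.5 and 31.3 CPM in the cell bodies, a log2 fold change of 4.02 ± 0.144. Nuclear receptors gave 4 higher and 0 lower without cell body replicate 2 and 3 and 0 without cell body replicate 3, and bHLH factors 7 and 3 and 6 and 3.

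Long noncoding RNAs were read by their names. Those named LINC gave 37 higher and 23 lower of 362, those named as antisense 66 higher and 62 lower of 602, and those named as divergent from a neighbouring promoter 37 higher and 9 lower of 279. LINC00667 rose from 30.3 ± 0.738 to 113 ± 16.4 CPM and LINC02035 fell from 16.2 ± 0.847 to 4.82 ± 0.120 CPM. The divergent transcript USP46-DT rose from 1.45 ± 0.246 to 16.8 ± 3.62 CPM. The setting for strand is not given in the sources used here, so reads of an antisense or divergent RNA and of its partner gene cannot be told apart. Most of these RNAs were scarce, and at 5 CPM or more in 3 libraries the counts were 12 and 3 for LINC, 25 and 5 for antisense and 13 and 0 for divergent RNAs. The divergent RNAs gave 14 and 6 and the antisense RNAs 43 and 40 without cell body replicate 2, and the divergent RNAs 16 and 8 without pseudopodia replicate 1.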

How the data were processed

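Gene expression was measured by RNA sequencing (TRIzol, glycogen carrier, low-input kit, per the labels' protocols). The authors deposited whole-number read counts per gene, made with featureCounts per the labels, and TPM values per library. GRCh38 and DESeq2 are named in the submitters' processing notes. The aligner was not given in the sources used here, nor were the annotation release and strand setting. The count table has 62710 lines, of which 1 without values was left out. Depth was 55469030 to 77166197 counts per library.

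From the counts, edgeR 4.0.16 (R 4.3.3) was run on the 6 libraries with TMM factors, edgeR's expression filter by group (17827 of 33298 genes with a count) and a robust quasi-likelihood test, with Benjamini-Hochberg adjusted p under 0.05 called. CPM are scaled by library total and TMM factors and given as mean ± SD over 3 libraries. The SE of a log2 fold change comes from the test statistic. Sequences, lengths and GC content came from GENCODE 29 and RefSeq. The feature of a hydrophobic protein start, planned on proteins, was replaced after seeing the files by the codon run, since no protein sequences were used here.

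The comparison, the 85 lists (78 families and 7 of cell type markers) and the rules were chosen with earlier results of these data known. Named were the 8 called genes with the largest rise and the 8 with the largest fall in CPM, the 10 per side with the widest gap between groups and at least 20 CPM, and in each list described the 2 called members per direction with the smallest p. The rule also allowed members nearest to no change, which are not named. RAB13, KIF1C, NET1, TRAK2 and COL1A1 were allowed in any case. Further genes, such as the cell type marker KRT8, lie outside this rule and were chosen after values were seen. X-inactivation and Y-linked genes were left out of naming, and so was 1 gene matched by name only. Some genes that the rule names are not reported here. Alternatives were DESeq2 size factors, DESeq2 1.42.0, limma-voom (limma 3.58.1), filters, TPM scales (limma on log2(TPM + 1) and log2(TPM + 0.1)), all 9 libraries, a GC and length correction, the replicate block, and each library left out.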

Additional observations from a re-analysis of the deposited data

How the results depend on the processing

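Called genes numbered 5549, with 5093 under a replicate block (2341 higher and 2752 lower). Same-numbered libraries of the groups deviated together only weakly (r = 0.104, 0.00845 and 0.109). No pseudopodia library correlated best with its own number, and of the cell bodies only replicate 3 did. The numbers were therefore not taken as pairs. limma-voom with sample weights called 9829 (4435 higher and 5394 lower). The lower calls were 4593 on log2(TPM + 1) and 4436 on log2(TPM + 0.1), and 705 genes were at least 2-fold higher on log2(TPM + 1). With a filter of 5 CPM 825 genes were at least 2-fold higher and 1162 lower, out of fewer genes tested. Leaving out each library in turn gave 3571 to 6568 calls, 1733 to 3105 of them higher and 1754 to 3463 lower. The share of higher calls among all calls was 28.5% on log2(TPM + 1) and 28.8% on log2(TPM + 0.1). The difference in the share of counts with a codon run was -5.18 points for runs of 7 and -9.33 points as TPM, and -13.2 to -12.3 points leaving out each library, alternatives chosen after seeing the data. The cause of the other shifts was not tested. The runs of hydrophobic residues at a threshold of 2.0 and their other alternatives were not run. The 325 named genes gave 5140 values under 16 alternatives, of which 4853 kept direction and call, 287 kept direction and lost the call, and 0 reversed. Of these genes, 258 stayed called in each alternative that tested them. Few replicates limit what small differences can show.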
